A study of Mus musculus with 2 samples.

Results

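The Hox cluster genes are the homeobox genes of the Hoxa, Hoxb, Hoxc and Hoxd clusters. They were taken as every gene row whose mouse symbol is Hox, a cluster letter from a to d and a paralogue number, which gave 39 genes of 43346 gene rows with an Ensembl identifier. The rule itself uses no measured value. The clusters held 11 Hoxa genes on chromosome 6, 10 Hoxb genes on chromosome 11, 9 Hoxc genes on chromosome 15 and 9 Hoxd genes on chromosome 2.

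The data are total RNA-seq of the heart of B6NCrl mouse embryos (a C57BL/6 line) at embryonic day 14.5, when the chambers and valves are formed and the outflow tract is divided. There were 2 libraries in 1 group, and the labels name no treatment, no altered allele and no other tissue. By the labels each library came from a single heart and the hearts were taken on different days, so embryo and collection day cannot be told apart. The labels nevertheless give the sex of each as a pool of male and female, so whether a library is 1 embryo or a pool is not settled. Below, a heart means the sample of a library. With 1 group no test between conditions was possible.

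Hox genes encode homeodomain transcription factors that give cells their position along the head to tail axis. Within a cluster the genes at the 3′ end, with low paralogue numbers, are switched on first and reach farthest toward the head, while those at the 5′ end act in the trunk, limbs and tail. Retinoic acid switches on the 3′ genes, Polycomb complexes keep unused genes silent, trithorax complexes keep used genes active, and the TALE homeodomain proteins (Pbx, Meis and Pknox) bind DNA together with Hox proteins. In the early embryo, 3′ genes such as Hoxb1 mark second heart field cells that contribute to the outflow tract and the atria, and the neural crest that enters the heart comes from a level of the hindbrain where Hox genes of groups 1 to 3 are active.

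The libraries held 27469198 and 27932136 expected counts on gene rows, where an expected count is a read count that shares ambiguous reads among the genes they fit. Levels are given in TPM, the number of transcripts relative to the library's total, which is scaled by transcript length and can be compared between genes. On a transcript of 1 kb effective length, 1 count was worth 0.0478 and 0.0475 TPM in replicates 1 and 2. The heart label was borne out by the cardiomyocyte markers, whose 5 genes (Tnnt2, Actc1, Myh6, Myh7 and Nkx2-5) summed to 22108 and 20948 TPM. These are bulk tissues, so fewer cells of a type and less RNA per cell cannot be told apart for any gene below.

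Hox RNA was scarce in both hearts, and most of what was measured came from a few genes of the 3′ and central parts of Hoxa and Hoxb. Hoxb2 alone reached 1 TPM in both libraries, which is 1 of 39 members (2.56%), beside 31.5% of all gene rows and 56.8% of protein coding genes. The median of the members' mean TPM was 0.045, beside a median of 3.26 over protein coding genes. Summed over all 39 genes, Hox RNA came to 5.25 and 7.89 TPM in replicates 1 and 2 (6.57 ± 1.87, SD, n = 2), less than the single cofactor gene Pbx3 at 19.9 and 20.5 TPM. In counts this was 190 and 321, or 6.90 and 11.5 CPM (counts scaled to the library's gene total).

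Of the 39 members, 25 had a count in at least 1 library, 18 had a count in both, and 5 had at least 10 counts in both, Hoxa2, Hoxa3, Hoxb2 and Hoxd8 among them. The other 14 members (35.9%) had no count in either library, beside 21.3% of protein coding genes and 45.1% of all gene rows. These were Hoxa6, Hoxa11, Hoxa13, Hoxb6, Hoxb13, Hoxc8, Hoxc9, Hoxc10, Hoxc11, Hoxc12, Hoxd1, Hoxd10, Hoxd11 and Hoxd12. A count of 0 allows up to 3 counts, which for these genes is 0.0589 to 0.185 TPM in replicate 1 and, for replicate 2, 0.0586 to 0.184 (counting error only), so a level up to that limit cannot be told from none.

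**Figure D1:**
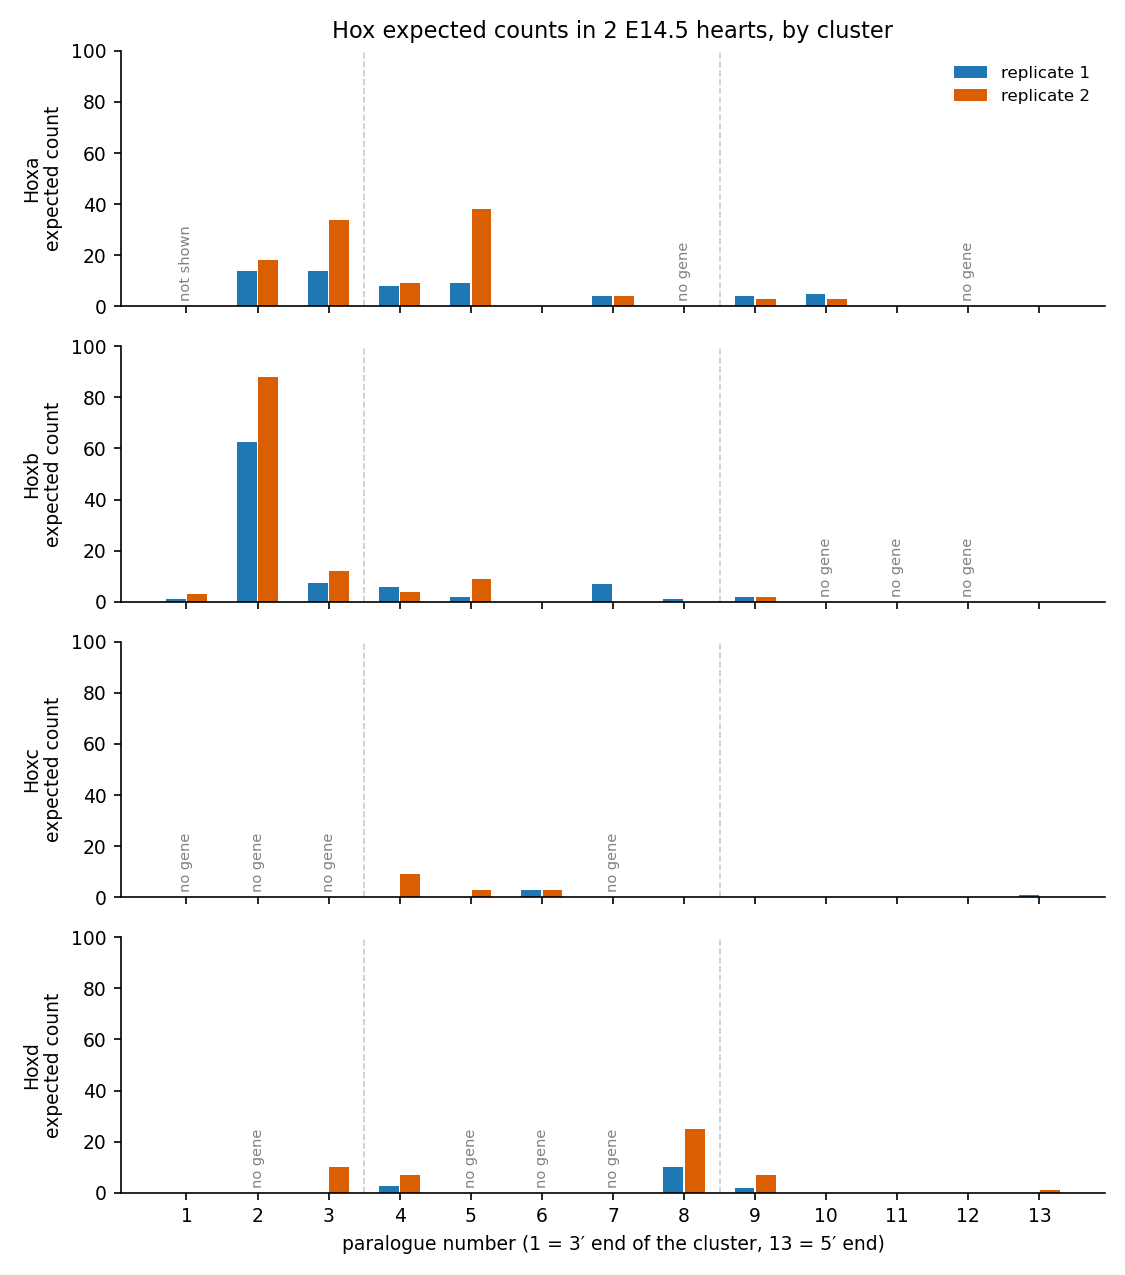
Expected counts of 38 of the Hox genes in the 2 E14.5 heart libraries, 1 panel per cluster, by paralogue number; bars are single libraries, dashed lines separate the classes 1 to 3, 4 to 8 and 9 to 13, and positions with no gene, or with a gene that is not shown, are marked. Hoxb2 stands highest with 62.6 and 87.9 counts, and groups 11 and 12 have no count in any cluster.

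The sequences upstream of 4 members are shown because these genes lie at different places in the clusters and at different levels in the heart. RefSeq start sites (GRCm38.p6) were found for 22 of the 39 genes, with 24 windows of 250 bases before the start. Each window is written in the direction of transcription, with CpG dinucleotides, the sites of DNA methylation in mammals, in capitals. Hoxa5 (chr6:52204588-52204837, minus strand) and Hoxd8 (chr2:74704365-74704614, plus strand) are central genes that were among the 6 that averaged 10 or more counts. Hoxa2 (chr6:52164832-52165081, minus strand) is an anterior gene of that same set, and Hoxa13 (chr6:52260881-52261130, minus strand) is the last gene at the 5′ end of Hoxa and had no count.
Hoxa5: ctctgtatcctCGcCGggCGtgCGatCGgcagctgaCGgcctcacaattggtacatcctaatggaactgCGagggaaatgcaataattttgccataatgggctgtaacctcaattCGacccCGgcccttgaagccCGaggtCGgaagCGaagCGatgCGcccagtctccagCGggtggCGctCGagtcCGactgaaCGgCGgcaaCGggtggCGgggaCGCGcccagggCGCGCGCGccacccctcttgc
Hoxd8: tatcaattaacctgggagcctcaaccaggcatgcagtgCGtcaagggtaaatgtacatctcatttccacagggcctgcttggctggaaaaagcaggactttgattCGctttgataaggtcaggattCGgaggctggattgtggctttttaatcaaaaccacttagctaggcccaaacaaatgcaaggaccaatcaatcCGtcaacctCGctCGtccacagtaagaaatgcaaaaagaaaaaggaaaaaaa
Hoxa2: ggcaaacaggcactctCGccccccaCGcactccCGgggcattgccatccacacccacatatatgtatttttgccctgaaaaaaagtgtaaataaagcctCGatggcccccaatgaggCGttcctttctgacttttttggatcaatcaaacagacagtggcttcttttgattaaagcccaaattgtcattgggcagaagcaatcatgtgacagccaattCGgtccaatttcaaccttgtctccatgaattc
Hoxa13: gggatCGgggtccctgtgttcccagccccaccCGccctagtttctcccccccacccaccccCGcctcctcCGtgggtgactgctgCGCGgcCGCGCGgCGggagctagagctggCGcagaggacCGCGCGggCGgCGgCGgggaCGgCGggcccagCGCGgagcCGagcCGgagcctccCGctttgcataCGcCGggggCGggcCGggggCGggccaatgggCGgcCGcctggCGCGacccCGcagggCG

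The windows of Hoxa5 and Hoxa13 held 28 and 35 CpG, and those of Hoxd8 and Hoxa2 held 6 each, so the CpG-rich windows shown include a member with RNA and a member without. The 24 Hox windows had a median of 12.5 CpG (range 2 to 35), beside a median of 6 over all 32851 windows of the table. The 16 windows of members with a count had a median of 10, and the 8 windows of members with none had a median of 20. The motif TGATNNAT, the form bound jointly by Hox and Pbx proteins, was searched on both strands and found in 4 of 24 Hox windows (16.7%), Hoxa2 among them, beside 7.68% of all windows. TATAAA was found in 16.7% of Hox windows and 12.4% of all windows, and CCAAT in 58.3% and 33.9%; matches to different motifs may overlap. A match is a stretch of letters and was not tested as a binding site.

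By paralogue class, the summed level was highest toward the 3′ end of the clusters and lowest toward the 5′ end. The anterior class (groups 1 to 3) held 59.4% ± 2.23 of the summed Hox TPM (SD, n = 2), with a count in 7 of its 8 genes. The central class (groups 4 to 8) held 34.3% ± 4.26, with a count in 12 of 15 genes, and the posterior class (groups 9 to 13) held 6.38% ± 2.03, with a count in 6 of 16. The classes stood in this order in both libraries and their ranges did not overlap. Without Hoxb2 the anterior share was 42.7% and the central share 48.3%, so the order of these classes by summed share rested on that gene. The posterior share remained lowest at 9.02%. These shares are sums over classes of 8, 15 and 16 genes and are not levels per gene.

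The Spearman correlation between mean TPM and paralogue number over the 39 genes was -0.625, given as a description, since genes of 1 cluster share a locus and all values share the same 2 libraries. Within clusters it was -0.817 in Hoxa (11 genes), -0.626 in Hoxb (10), -0.584 in Hoxc (9) and -0.313 in Hoxd (9). All 4 were negative, with Hoxd the flattest, where Hoxd1 had no count and Hoxd8 had the highest level of its cluster.

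By cluster, Hoxa held 43.3% ± 2.45 of the summed TPM and Hoxb 41.6% ± 7.502, a difference smaller than the spread between the libraries. Hoxd held 10.9% ± 4.11 and Hoxc 4.28% ± 0.936. Hoxa spread its share over many genes, while Hoxb2 held 29.1% ± 1.16 of all Hox TPM. Without Hoxb2 the Hoxb share was 17.7% and the Hoxa share 61.0%.

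Among the anterior genes, Hoxb2 (chr11:96350525-96354012, plus strand, GRCm38), which patterns hindbrain segments and the neural crest that leaves them, had 62.6 counts (1.57 TPM) in replicate 1 and 87.9 counts (2.23 TPM) in replicate 2, a mean of 1.90 ± 0.467 TPM (SD, n = 2). Of protein coding genes, 45.2% lay below it in replicate 1 and 47.0% in replicate 2, which places the most abundant Hox gene near the middle of the coding transcriptome. Reads on it were shared with other genes in the count estimate, and the deposited posterior SD of its count was 7.21 and 6.12. Hoxb3os, an antisense transcript with 29.1 and 35.8 counts, covers 953 of the 3488 exonic bases of Hoxb2 (27.3%), and whether the counting used strand is not given in the sources used here.

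Hoxb2 has a spliced transcript of 1628 nt and one of 3134 nt that keeps the intron. The spliced form held 75.1% of the gene's TPM in replicate 1 and 77.1% in replicate 2 (76.1% ± 1.42), and the intron-keeping form 24.9% and 22.9%. By counts, which are not divided by length, the spliced form held 61.6% ± 1.85. The estimated proportions of the 2 forms were thus similar in the 2 hearts. They rest on few counts, 24.9 and 32.6 for the intron-keeping form. In total RNA, that form was not told apart from RNA not yet spliced.

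Both Hoxa2 and Hoxa3 lay below Hoxb2 in each library. Hoxa2, which sets the identity of the second pharyngeal arch, had 14 and 18 counts (0.42 and 0.54 TPM). Hoxa3, needed for the derivatives of the third arch such as the thymus and the carotid body, had 14 and 33.7 counts (0.27 and 0.67 TPM), with 91.2% and 90.1% of its TPM in a coding transcript of 2591 nt.

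In the mean, Hoxb3, Hoxd3, Hoxb1 and Hoxd1 lay lower. Hoxb3 had 7.34 and 12.3 counts but 0.33 and 0.23 TPM, because the deposited transcript length assigned to it was 1176 nt in replicate 1 and 2660 nt in replicate 2, and 52.9% of its exonic bases are shared with Hoxb3os. Hoxd3 had 0.09 and 10 counts, and the 10 counts were all assigned to an intron-keeping transcript of 2721 nt; the gene shares exonic bases with Hoxd4 and with Gm28230, which had 3.27 and 0 counts. Hoxb1, an early marker of second heart field cells, had 1 and 3 counts, and Hoxd1 had none.

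Among the central genes, Hoxa5, known for its part in the lung and the axial skeleton, had 9 counts (0.24 TPM) in replicate 1 and 38 counts (1.02 TPM) in replicate 2, a mean of 0.63 ± 0.552 TPM (SD, n = 2). It has a single transcript in the tables, shares no exonic bases with another gene, and the posterior SD of its count was 0 in both libraries. Hoxd8 had 10 and 25 counts (0.27 and 0.47 TPM), likewise with no shared exonic bases. Hoxa5 was thus below Hoxa2 in replicate 1 and above it in replicate 2.

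The other central genes had at most 9 counts in a library. Hoxa4 had 8 and 9, Hoxb4 had 6 and 4, Hoxb5 had 2 and 9, and Hoxd4 had 2.66 and 7. These genes act at neck and upper trunk levels of the body. Hoxa7 had 4 counts in each library and Hoxc6 had 3 in each. Hoxb7 had 7 counts in replicate 1 and none in replicate 2, while Hoxc4 had none and 9, and Hoxc5 had none and 3. Hoxb8 had a single count, in replicate 1. At this depth such genes were near the limit of detection and their order was not resolved.

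The posterior genes, which pattern the lumbar to tail levels, the limbs and the urogenital tract, came to 14 counts in replicate 1 and 16 in replicate 2 over 16 genes. Group 9 gave most of them, with 4 and 3 counts for Hoxa9, 2 and 2 for Hoxb9 and 2 and 7 for Hoxd9. Hoxa10 had 5 and 3. No member of groups 11 and 12 had a count, and group 13 had 1 count in each library, from Hoxc13 in replicate 1 and Hoxd13 in replicate 2.

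For 7 of the members with at least 10 counts in a library, the order by mean TPM was Hoxb2, Hoxa5, Hoxa2, Hoxa3, Hoxd8, Hoxb3 and Hoxd3. Hoxb2 lay above all others in both libraries. The ranges of Hoxa5 and Hoxa2 overlapped, as did those of Hoxa2 with Hoxa3, Hoxa3 with Hoxd8 and Hoxd8 with Hoxb3, so these neighbours did not differ beyond the spread of the 2 libraries. Hoxb3 and Hoxd3 did not overlap.

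**Figure D2:**
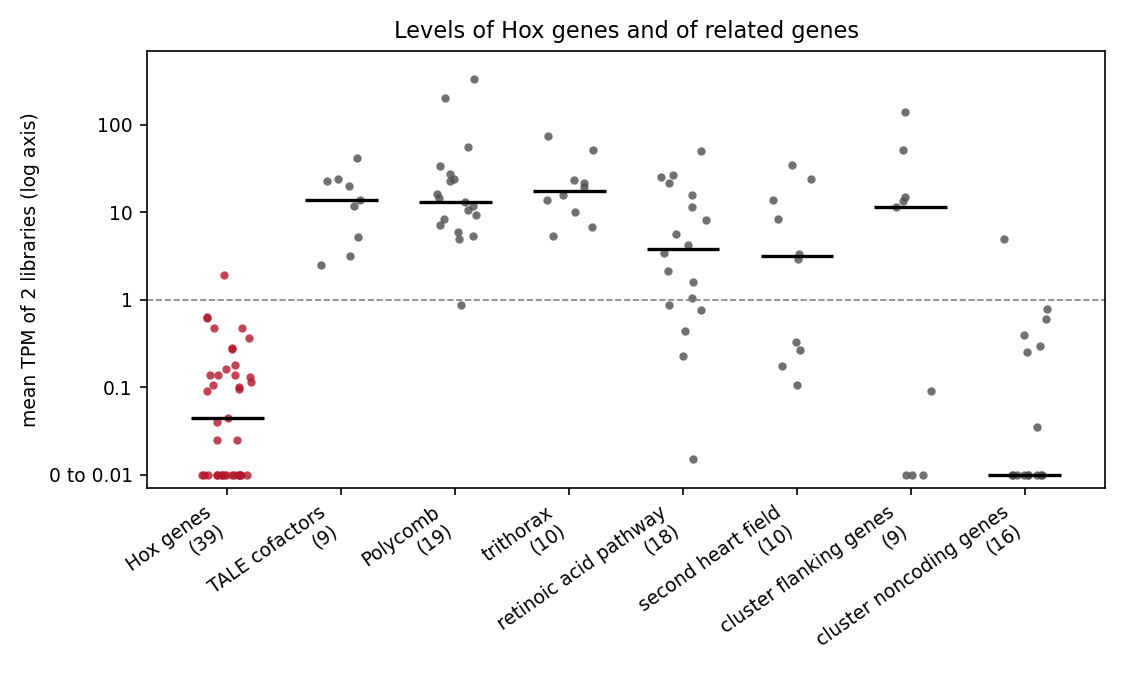
Mean TPM of the 2 libraries (log axis) for each Hox gene and for each gene of 7 related lists, with the number of genes in brackets; points are genes, spread sideways for legibility, black lines are medians, the dashed line is 1 TPM, and values from 0 to 0.01 are drawn at the lowest tick. The Hox median is 0.045 TPM, and the medians of the TALE, Polycomb and trithorax lists are 13.7, 13.1 and 17.5 TPM.

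The DNA-binding partners of Hox proteins were measured well above the Hox genes in the same libraries. All 9 TALE cofactor genes reached 1 TPM in both, beside 56.8% of all protein coding genes. Their median was 13.7 TPM and their sum 143 and 146 TPM. Meis1 had 43.9 and 39.4 TPM, Meis2 24.2 and 24.0, Pbx3 19.9 and 20.5, and Pknox1 14.1 and 13.2. Their summed RNA differed little between the hearts, with a fold of 0.985 (95% interval 0.958 to 1.01, counting error only).

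Of the Polycomb genes, 18 of 19 reached 1 TPM in both libraries (median 13.1 TPM), and of the trithorax genes 10 of 10 (median 17.5 TPM). Over all protein coding genes the share was 56.8%, which is also the share to set beside the lists that follow here. The histone methyltransferase gene Ezh2, whose product writes the repressive mark of Polycomb, had 23.99 and 30.03 TPM, and Kmt2a, a trithorax methyltransferase that maintains Hox expression, had 5.01 and 5.65 TPM. The early regulators Cdx1, Cdx2 and Cdx4, which activate trunk Hox genes, had no count, and 1 of the 6 genes in this list reached 1 TPM in both. Of 7 homeobox genes related to the Hox genes but outside the clusters, 2 reached 1 TPM in both, Meox1 at 10.8 and 10.8 TPM and Meox2 at 2.75 and 2.67 TPM, while the ParaHox genes Gsx1, Gsx2 and Pdx1 had no count.

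In the retinoic acid pathway, 12 of 18 genes reached 1 TPM in both libraries, with a median of 3.83 TPM, near the 56.8% and the median of 3.26 TPM of all protein coding genes. Among them were Dhrs3 at 25.6 and 28.2, Rara at 24.4 and 25.9, Aldh1a2 at 20.3 and 22.4 and Rarb at 15.7 and 15.5 TPM. At the lower minimum of 10 counts, used below for the Hox genes, Stra6, a receptor for retinol uptake, was 2-fold or more apart (2 and 24 counts, fold 9.48, interval 2.87 to 101), and no other gene of the TALE, Polycomb, trithorax and retinoic acid lists was, beside 4.03% of all genes at that minimum. Crabp1, a retinoic acid binding protein, had 80 and 159 counts (1.91-fold). No gene of these 4 lists that averaged 50 or more counts was 2-fold or more apart between the hearts, beside 0.81% of all genes at that count (0.59% if only those higher in replicate 2 are counted).

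Of 9 protein genes that flank the clusters, 5 reached 1 TPM in both libraries, a share close to the 56.8% of all protein coding genes. Among them were Mtx2, beyond the 3′ end of Hoxd, at 142 and 139 TPM, and Calcoco1, near Hoxc, at 52.0 and 51.5 TPM. Smug1 had 12.9 and 13.7, Lnpk 14.6 and 15.6, and Skap2 11.3 and 11.9 TPM. The homeobox genes Evx1 and Evx2, which lie directly beyond the 5′ ends of Hoxa and Hoxd, had no count.

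Within the clusters, 16 noncoding genes were looked at and 9 had no count, the 6 miRNA rows among them; small RNA lay outside the size range that the labels give. Hotairm1, an antisense RNA from the 3′ end of Hoxa, had 17 and 30.04 counts and 3.36 and 6.60 TPM, a level per length above that of every Hox gene. Hoxb3os had 29.1 and 35.8 counts (0.72 and 0.84 TPM), and Hoxaas2, which lies opposite Hoxa3, had 3.99 and 12.3 counts. The noncoding transcripts seen were thus mostly from the 3′ part of Hoxa and Hoxb, next to the Hox genes with the most counts, while Hottip and Hotair, from the 5′ parts of Hoxa and Hoxc, had none.

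Summed Hox RNA was higher in the heart of replicate 2, and a few genes carried much of the gap. The summed count, scaled by TMM (a normalisation to the bulk of genes), was 1.63-fold higher (95% interval 1.36 to 1.96, counting error only), with 190 and 321 counts. Without Hoxb2 the fold was 1.76 (1.42 to 2.21), without Hoxa5 1.51 (1.25 to 1.82) and without Hoxa3, Hoxa5 and Hoxd8 1.38 (1.11 to 1.70). Over the 23 members that share no exonic bases with another gene it was 1.94 (1.36 to 2.82), from 47 and 95 counts, but without Hoxa5 and Hoxd8 these came to 28 and 32 counts and the fold was 1.10 (0.642 to 1.90), an interval that includes no difference. Hoxa3, Hoxa5 and Hoxd8 were left out after their folds were seen, so a lower fold without them was fixed in advance and only its size is described. Of the 25 members with a count, 16 had more unscaled counts in replicate 2, 6 had fewer and 3 had the same number. Scaled by TMM, 16 were higher in replicate 2 and 9 in replicate 1. The share over all genes with so few counts was not computed, so this split is a description only. In the 17 with fewer than 10 counts in each library, 8 had more, 6 fewer and 3 the same number, again unscaled. The 17 came to 48.7 and 67 counts in all (fold 1.32, 0.897 to 1.94), so no shared direction was resolved in them. There is 1 library per replicate number, so this is a difference between 2 libraries and has no replicate of its own.

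By class, the central genes had 52.7 and 111 counts (fold 2.02, 1.44 to 2.85), the anterior genes 123 and 194 (1.52, 1.21 to 1.92), and the posterior genes 14 and 16 (1.10, 0.503 to 2.43). These intervals overlap, so a difference between the classes was not resolved at this depth. By cluster, Hoxd had 14.8 and 50 counts (3.19, 1.77 to 6.15) and Hoxa 82.0 and 138 (1.61, 1.22 to 2.16). Hoxb had 88.9 and 118 (1.28, 0.961 to 1.70), an interval that includes no difference, and its upper bound lies just below the lower bound of Hoxd. These bounds cover counting error only. Hoxd3 gave 0.09 and 10 of the Hoxd counts, and Gm28230, which shares 53.1% of the exonic bases of Hoxd3, had 3.27 and 0. A difference between Hoxb and Hoxd was therefore not taken as resolved. Hoxc had 4 and 15 counts, too few to place (3.33, 1.15 to 15.0).

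Of single genes, Hoxa5 differed most among the 6 members that averaged 10 or more counts, with a fold of 3.91 (1.93 to 9.56) from 9 and 38 counts. Hoxd8 had a fold of 2.34 (1.12 to 5.62) from 10 and 25 counts, and Hoxa3 a fold of 2.27 (1.22 to 4.72) from 14 and 33.7 counts. The intervals of these 3 genes lie above 1, but they cover counting error only, not the spread between embryos. Hoxb2 had a fold of 1.35 (0.962 to 1.89) and Hoxa2 1.23 (0.582 to 2.69), whose intervals include no difference. All 6 were higher in replicate 2, beside 54.2% of genes with a mean count from 10 to below 100. Below a mean of 10, the interval of Hoxb7 (7 and 0 counts) lay under 1, with an upper bound of 0.668. Those of Hoxc4 (0 and 9 counts, lower bound 1.90) and Hoxd3 (0.09 and 10 counts, lower bound 2.16) lay above 1. The Hoxd3 interval does not cover how reads were shared with Gm28230 (3.27 and 0 counts), which shares 53.1% of the exonic bases of Hoxd3. How often such intervals leave out 1 over all genes with so few counts was not computed, so these genes are a description only.

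A gap of 2-fold or more was thus seen in 3 of these 6, all higher in replicate 2, beside 4.03% of all genes that averaged 10 or more counts and 13.8% of those from 10 to below 100 (2.5% and 8.42% if only genes higher in replicate 2 are counted), the range in which all 6 lie. Hoxa5, with 9 counts in replicate 1 and 38 in replicate 2, met the minimum through the library in which it was high. The shares over all genes rest on the same mean count. The median log2 difference over the 6 was 0.81, beside 0.06 over all genes from 10 to below 100. Of members averaging 50 or more counts only Hoxb2 remained and it was not 2-fold apart. Adding 5 rather than 0.5 counts to each library left 1 gene 2-fold apart, Hoxa5.

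**Figure D3:**
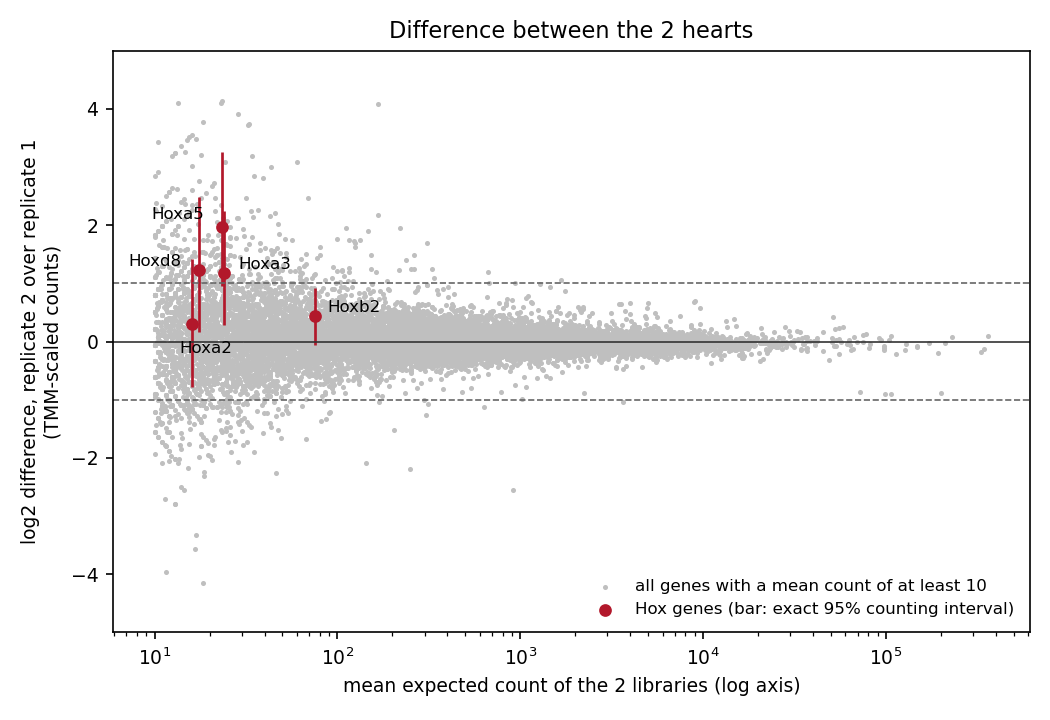
Log2 difference between the hearts (replicate 2 over replicate 1, TMM-scaled counts) against mean expected count (log axis) for all genes that averaged 10 or more counts (grey) and 5 Hox genes among them (red, bars are exact 95% intervals for counting error); dashed lines mark 2-fold. These 5 Hox genes lie above 0, and Hoxa5, Hoxd8 and Hoxa3 lie above the upper dashed line.

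Markers of several other cell types moved with this difference. The 5 autonomic neuron markers (Th, Tubb3 and Stmn2 among them) summed to 119 and 454 counts, a fold of 3.66 (2.996 to 4.53), and to 3.12 and 11.1 TPM. The 5 sinus node and venous pole markers summed to 1527 and 2426 counts (1.53, 1.43 to 1.63), with Shox2 at 142 and 477 and Isl1 at 57 and 192 counts. The 5 lung markers summed to 3 and 73 counts and to 0.07 and 1.74 TPM: Epcam, an epithelial gene, had 3 and 54, Foxa2 and Sox2 0 and 8 each, Nkx2-1 0 and 3, and the surfactant gene Sftpc none in either. All 3 of these lists were higher in replicate 2, and their part in the Hox difference was not tested.

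The kidney markers were also higher in replicate 2, with 2 and 11 counts, 8 of the latter from Six2, and Pax2 at 0 in both. The other marker lists had folds nearer to 1 or below 1. Spinal cord and hindbrain markers, from the tissue where Hox RNA is abundant, came to 6 and 9 counts over 5 genes, with Olig2 and Neurog2 at 0 in both. Their fold of 1.41 (0.459 to 4.93) rests on too few counts to place. Limb and body wall markers had a fold of 1.21, epicardium 1.17, skeletal muscle 1.20, liver 1.16, Schwann and neural crest 1.01, cushion and valve mesenchyme 0.987, smooth muscle 0.946, cardiomyocytes 0.920, endothelium 0.912 and leukocytes 0.874. Erythroid markers were lower in replicate 2, at 0.541. These folds are of summed counts, so the genes with many counts weigh most in them. In replicate 1, Acta2 held 37382 of the 45492 smooth muscle counts and Postn 16134 of the 19390 cushion and valve counts. Single markers of these lists that averaged 50 or more counts and differed 2-fold or more included the smooth muscle gene Myh11 (59 and 191 counts), the liver gene Ahsg (45 and 104) and the erythroid genes Alas2 (4862 and 2456) and Slc4a1 (857 and 408). The liver list was mixed. Of its 4 genes that averaged 10 or more counts, 2 were 2-fold or more higher in replicate 2 and 1 in replicate 1.

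The second heart field list, in which Hox genes of the anterior groups are known to act, had 6 of 10 genes at 1 TPM or more in both libraries, beside 56.8% of all protein coding genes. Osr1 had 209 and 466 counts (2.14-fold) and Isl1 57 and 192 (3.22-fold), the 2 genes of this list that averaged 50 or more counts and differed 2-fold or more. Tbx5, Mef2c and Hand2, which are also active in heart muscle, had folds of 1.09, 0.891 and 1.03.

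**Figure D4:**
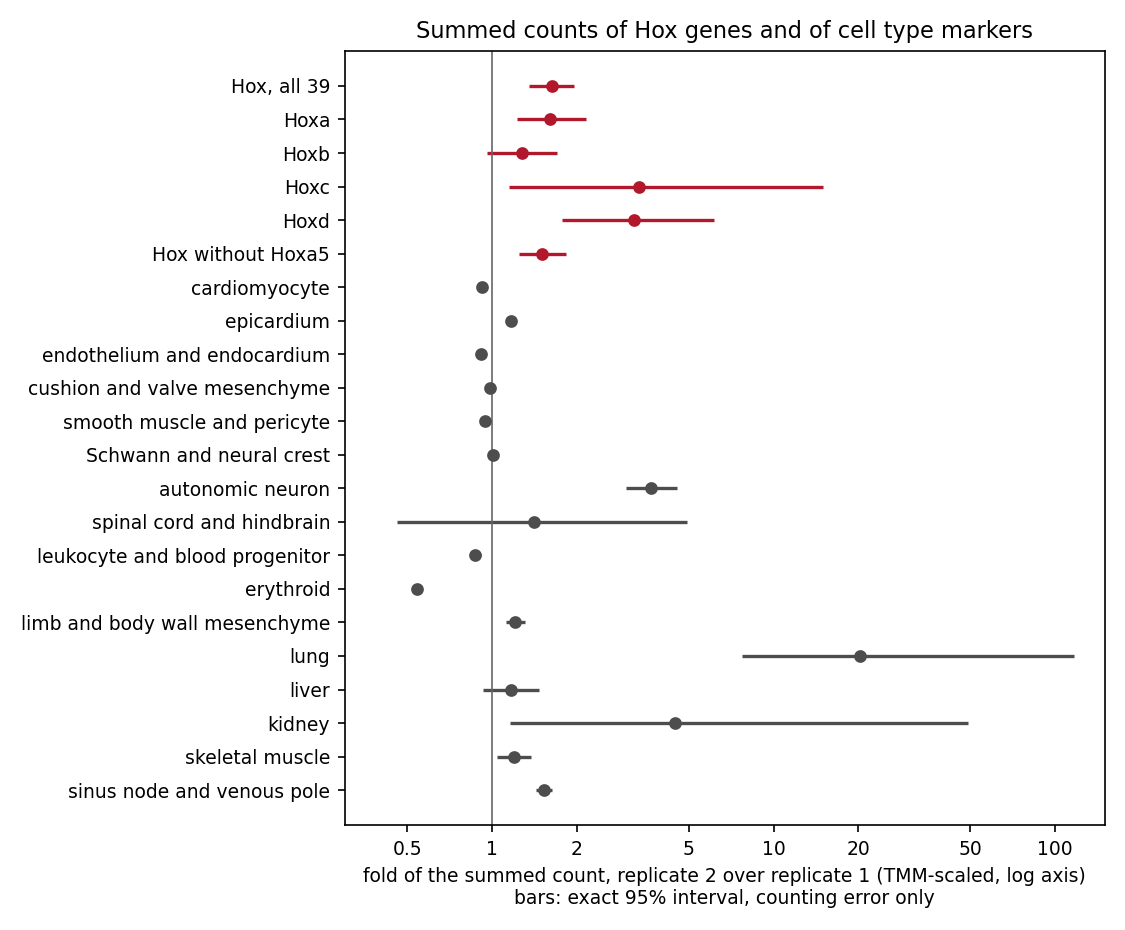
Fold of the summed count between the hearts (replicate 2 over replicate 1, TMM-scaled, log axis) for Hox genes (red) and for 16 lists of cell type markers (grey); bars are exact 95% intervals for counting error. The sum over all Hox genes lies at 1.63, the autonomic neuron markers at 3.66, the lung markers at 20.3 and the erythroid markers at 0.541.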

How the data were processed

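Both libraries are total RNA from single E14.5 hearts, extracted with the mirVana method, with 10 ng used per library, per the labels, and the depth was 27469198 and 27932136 expected counts on gene rows. The text deposited with the tables names GENCODE M4 as the annotation, on mm10. The aligner, quantifier and strand setting were not given in the sources used here. Each deposited table gives expected counts (estimated counts per gene or transcript, not scaled by depth), TPM and FPKM computed by the authors, and posterior estimates, per the file headers. The deposited transcript tables also give each transcript's share of its gene's TPM as a percent.

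The 69691 rows of each gene table were reduced to the 43346 with an Ensembl identifier, of which 42462 had a symbol in GENCODE M21, which also gave positions and exons on the same assembly (GRCm38). Upstream sequences are from RefSeq on GRCm38.p6. Counts were scaled by TMM in edgeR 4.0.16 (R 4.3.3) over 15735 genes, with DESeq2 1.42.0 size factors, spike-in totals and total counts as alternatives. Folds had 0.5 added to each count. Their 95% intervals are exact Clopper-Pearson intervals on the share of the 2 libraries' counts, without that addition, and cover counting error only, since reads without molecular identifiers are not independent molecules. Shares and levels are the mean ± SD of the 2 libraries, and the fold calculation was checked on simulated data. Plots and summaries used Python 3.11.15.

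The members follow from a rule on symbols alone, but that rule and the gene and marker lists were proposed with earlier results of these data known, so no list is independent evidence. All 39 members enter the sums, counts and shares, and 1 of them, with some genes of the lists, is not reported here singly. The others are given in full where they reached 1 TPM in both libraries, and with counts where they had at least 10 counts in a library. Of the lists, the cluster genes with at least 10 counts, up to 5 cofactor and pathway genes of highest level, and genes 2-fold or more apart that averaged 50 or more counts are named; other names, such as Ezh2, Kmt2a and the members with few counts, were picked after their values were seen. With 1 group there was no test and no p-value.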

Additional observations from a re-analysis of the deposited data

How the results depend on the processing

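No paired analysis was possible because there is only 1 group. The limit here is depth: 1 of 39 Hox genes had a mean count of at least 50, and with 2 libraries an SD is itself poorly known. The number of Hox genes taken as detected, 1 at 1 TPM in both libraries, was 2 at a TPM of 0.5, 0 at a TPM of 2, 5 at 10 counts in both, and 1 to 2 when a replicate was left out. With only members at a TPM of at least 1, the Hoxb and anterior shares were 100% and all others 0. The posterior mean TPM, which lifts genes with no count, gave Hoxb 34.0%, Hoxc 9.07%, anterior 47.5% and posterior 16.4%. Counts not divided by length gave an anterior share of 62.6%. An anterior class of groups 1 to 4 held 69.4%, leaving 24.2% for the central class. The 1.63-fold higher summed Hox count in replicate 2 was 1.10 over members that share no exonic bases once Hoxa5 and Hoxd8 were left out as well, an alternative chosen after seeing the data. Without Hoxb2, also chosen after seeing the data, Hoxa held 61.0%, Hoxb 17.7%, Hoxc 6.03% and Hoxd 15.3%, and the classes 42.7%, 48.3% and 9.02%. Leaving out a replicate in turn gave Hoxa 41.5 to 45.0%, Hoxb 36.2 to 46.9%, Hoxc 3.62 to 4.94%, Hoxd 8 to 13.8%, anterior 57.8 to 61.0%, central 31.2 to 37.3% and posterior 4.94 to 7.81%, so either Hoxa or Hoxb led, depending on the library.

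No Hox gene with a mean count of at least 50 was 2-fold apart; at a mean count of 10 there were 3, also 3 with DESeq2 size factors, 3 with spike-in totals and 3 with total counts, and 1 with 5 counts added. Spike-in scaling moved the median of all genes by 0.110 log2. At a mean count of at least 100 no member remained, so the median difference has no value there. The correlation of level with paralogue number, -0.625, was -0.821 over members with at least 10 counts in both libraries and -0.652 to -0.518 when a replicate was left out. The share of the spliced Hoxb2 transcript, 76.1% of TPM, was 61.6% of counts. Except where a setting changes by construction what is counted, the cause of these shifts was not tested.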
